A study of Sus scrofa with 6 samples.

Results

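The genes of cumulus expansion and of the hyaluronan matrix, HAS2, TNFAIP6, PTX3, VCAN, CD44 and AREG, were read in ovarian follicles of 3 Large White and 3 Chinese Erhualian sows. Every probe set whose only gene symbol in the annotation of the array is one of these 6 names was taken. A gene for which RefSeq gives such a name as a synonym was also taken. This gave 5 of the 6 genes, 4 by symbol and 1 by synonym. They stand among 6765 genes with 1 symbol and hold 10 of the 23935 probe sets other than controls. HAS2 had 1 probe set, listed under the symbol SHAS2, for which RefSeq gives HAS2 as a synonym. TNFAIP6 had 1, PTX3 had 2, VCAN had 5 and AREG had 1. CD44 had no probe set by this rule.

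All 6 animals were multiparous cyclic sows. Each received 1000 IU of PMSG, a gonadotropin that makes follicles grow, and 80 h later 500 IU of hCG, which acts on the LH receptor and sets off ovulation. Ovaries were removed 30 to 38 h after hCG, follicles over 5 mm were dissected, and the RNA of 1 sow was hybridized to each Affymetrix porcine array. The Chinese Erhualian sows, a strain of the group that the study calls Chinese Taihu, came from one farm and the Large White sows from another, so breed and farm cannot be told apart. No untreated sow and no time outside 30 to 38 h after hCG was measured. The time of each sow within these hours is not given, so differences in time and other differences between sows cannot be told apart. Values are the authors' normalized signal intensities on a linear scale, and the level of one probe set cannot be set against that of another. The number of arrays limits the precision.

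In an ovulatory follicle the LH signal reaches the mural granulosa cells first. These release ligands of the EGF receptor, amphiregulin (AREG) among them, which pass the signal on to the cumulus cells around the oocyte. The cumulus cells then make hyaluronan with the synthase HAS2 and fix it in a matrix. TNFAIP6 moves the heavy chains of inter-alpha-trypsin inhibitor onto hyaluronan, pentraxin 3 (PTX3) holds the modified chains together, and versican (VCAN), a large proteoglycan, binds hyaluronan through its end domain. CD44 is the main hyaluronan receptor on the cell surface.

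A library stood apart from the rest. In Chinese Erhualian sow 1 the summed signal of 11 granulosa and cumulus cell markers was 2630, against 19694 to 27762 in the other 5 sows, and that of 6 markers of steroid-producing cells was 2190 against 10586 to 60652. All 6 steroid-producing markers and 6 of the 11 granulosa and cumulus markers were lowest in that sow. In the other 5 sows INHA and SERPINE2 were the brightest of the 11. The 9 measured markers of oviduct and surface epithelium summed to 45798 there and to 1639 to 8436 in the other sows, and all 9 were highest in that sow, with EPCAM at 7761 and OVGP1, the oviductal glycoprotein, at 11904. Large White sow 3 held the next highest epithelial sum, 8436, and Large White sow 2 the highest sum of 12 leukocyte markers, 19142 against 3790 to 6732 elsewhere. The 6 measured oocyte markers summed to 724 to 1157 over the 6 sows. No source used here says whether the cumulus and oocyte stayed in the follicles. In such bulk RNA, fewer cells of a type and less RNA per cell cannot be told apart. The breed difference of each tested member is therefore given with and without Chinese Erhualian sow 1.

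No gene of the matrix passed the test between the breeds. For the probe sets taken by the rule, the large differences lay among the Chinese Erhualian sows, in 2 patterns. Both PTX3 probe sets and 3 of the 5 VCAN probe sets were far lower in Chinese Erhualian sow 1 than in any other sow. TNFAIP6 and AREG, in contrast, were far higher in Chinese Erhualian sow 2 than in any other. HAS2 was low and nearly level in all 6 animals.

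AREG, the ligand, was at 254, 179 and 312 in Large White sows 1, 2 and 3, and at 155, 1312 and 134 in Chinese Erhualian sows 1, 2 and 3 (probe set Ssc.14467.2.S1_a_at). Chinese Erhualian sow 2 stood 4.20-fold above the next highest sow, and the other 2 Chinese Erhualian sows lay below all 3 Large White sows. The means were 248 ± 66.7 in Large White and 534 ± 674 in Chinese Erhualian (SD, n = 3 each), a ratio of 2.15. On the log2 scale the breeds differed by 0.31 with an SE of 0.88 (95% interval -1.80 to 2.43, limma adjusted p = 0.996), which did not pass the test. Without Chinese Erhualian sow 2 the difference was -0.75 with an SE of 0.29, and the limma adjusted p was 0.708. It was 0.79 without Chinese Erhualian sow 1. The direction of the breed difference in AREG was thus set by 1 sow.

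HAS2, the enzyme that makes hyaluronan at the cell membrane, was at 72.3, 71.5 and 73.1 in Large White sows 1, 2 and 3. The Chinese Erhualian sows 1, 2 and 3 gave 55.9, 67.0 and 80.8. The Large White values lay between those of Chinese Erhualian sows 2 and 3, so the breeds overlapped, and the log2 difference was -0.11 with an SE of 0.17 (95% interval -0.52 to 0.31, limma adjusted p = 0.993). All 6 signals were close to 50, the level a probe set had to pass on 3 arrays to be tested. The highest of the 6 sows was 1.45-fold above the lowest, and leaving out Chinese Erhualian sow 1 turned the difference to 0.03.

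TNFAIP6, which modifies the hyaluronan that HAS2 makes, was at 58.6, 66.0 and 25.4 in Large White sows 1, 2 and 3 and at 36.4, 744 and 52.0 in Chinese Erhualian sows 1, 2 and 3. A signal above 50 was seen on 4 arrays, and only that of Chinese Erhualian sow 2 was far above it, 11.3-fold over the next highest sow. The mean was 50 ± 21.6 in Large White and 277 ± 404 in Chinese Erhualian (SD, n = 3 each), a ratio of 5.55. The log2 difference of 1.28 had an SE of 1.15 (95% interval -1.49 to 4.05, limma adjusted p = 0.993). It was -0.08 without Chinese Erhualian sow 2 and 2.09 without Chinese Erhualian sow 1. The large ratio of the means was therefore the value of a single sow.

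PTX3 was read by a pair of probe sets. Ssc.8162.1.S1_at gave 2573, 4418 and 6844 in Large White sows 1, 2 and 3 and 65.6, 5264 and 5784 in Chinese Erhualian sows 1, 2 and 3. Ssc.8162.2.S1_at gave 1530, 3371 and 7451 in the Large White sows and 54.7, 3783 and 4390 in the Chinese Erhualian sows. Both put the 6 sows in the same order, with Chinese Erhualian sow 1 last, 39.2-fold and 27.9-fold below the next lowest sow. Its own signals were as close to 50 as those of dim probe sets, so the size of these folds is uncertain. The log2 differences were -1.76 with an SE of 1.72 (95% interval -5.92 to 2.40) and -1.80 with an SE of 1.73 (95% interval -5.97 to 2.37), and the limma adjusted p was 0.993 for each. They were 0.37 and 0.27 without Chinese Erhualian sow 1. Over the remaining 5 sows the highest PTX3 signal was 2.66-fold and 4.87-fold above the lowest, in each case Large White sow 3 against Large White sow 1, so the pentraxin also varied within the Large White breed.

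VCAN was read by 5 probe sets, 3 of them bright and 2 dim. Ssc.5663.1.S1_at gave 1919, 2174 and 2050 in Large White sows 1, 2 and 3 and 172, 2140 and 2374 in Chinese Erhualian sows 1, 2 and 3. Ssc.5663.2.S1_at gave 1182, 1241 and 1339 against 130.3, 1422 and 1322, and Ssc.26647.1.S1_at gave 551, 634 and 719 against 62.1, 778 and 797, in the same order of sows. In all 3, Chinese Erhualian sow 1 was the lowest, 11.2-fold, 9.07-fold and 8.87-fold below the next lowest sow, the last from a signal close to 50. Over the other 5 sows, highest over lowest was 1.24, 1.20 and 1.45, against a median of 1.59 over all tested probe sets. A smaller spread was seen for 9.72%, 6.19% and 35.7% of all tested probe sets, so the first 2 were among the steadier ones. The log2 breed differences were -1.10 (SE 0.99, 95% interval -3.50 to 1.30), -1.0 (SE 0.91, 95% interval -3.20 to 1.20) and -0.90 (SE 0.98, 95% interval -3.28 to 1.47), each with a limma adjusted p of 0.993. They were 0.14, 0.13 and 0.32 without Chinese Erhualian sow 1.

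The other 2 VCAN probe sets were dim in every sow. Ssc.14682.1.A1_at lay at 51.1, 50.6 and 41.2 in the Large White sows and at 43.0, 60.4 and 49.2 in the Chinese Erhualian sows, a log2 difference of 0.09 with an SE of 0.18 (95% interval -0.36 to 0.53), and of 0.20 without Chinese Erhualian sow 1. Ssc.16024.1.S1_at stayed at or under 40.9 in all 6 sows, from 27.0 upwards, and was the 1 of the 10 probe sets that did not pass the filter. At such levels in all 6 sows a drop in Chinese Erhualian sow 1 could not be seen, and the pattern described here is that of the 3 brighter probe sets.

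CD44 could be looked at only outside the rule, through a probe set that has no symbol in the annotation of the array but is named CD44 in the study's own annotation. That name stands in a list of genes selected for a breed difference on these same arrays, so the value is a description and not independent evidence. It lay at 337, 749 and 765 in Large White sows 1, 2 and 3 and at 181, 311 and 419.6 in Chinese Erhualian sows 1, 2 and 3. The highest Chinese Erhualian sow exceeded the lowest Large White sow, so the breeds overlapped. The mean ratio was 0.492 and the log2 difference -1.01 with an SE of 0.45 (95% interval -2.09 to 0.06, limma unadjusted p = 0.0613, limma adjusted p = 0.993). It was -0.68 without Chinese Erhualian sow 1, and leaving out any single sow kept it between -1.40 and -0.68. Because the list was selected on these same sows, this steadiness is no separate support.

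**Figure D1:**
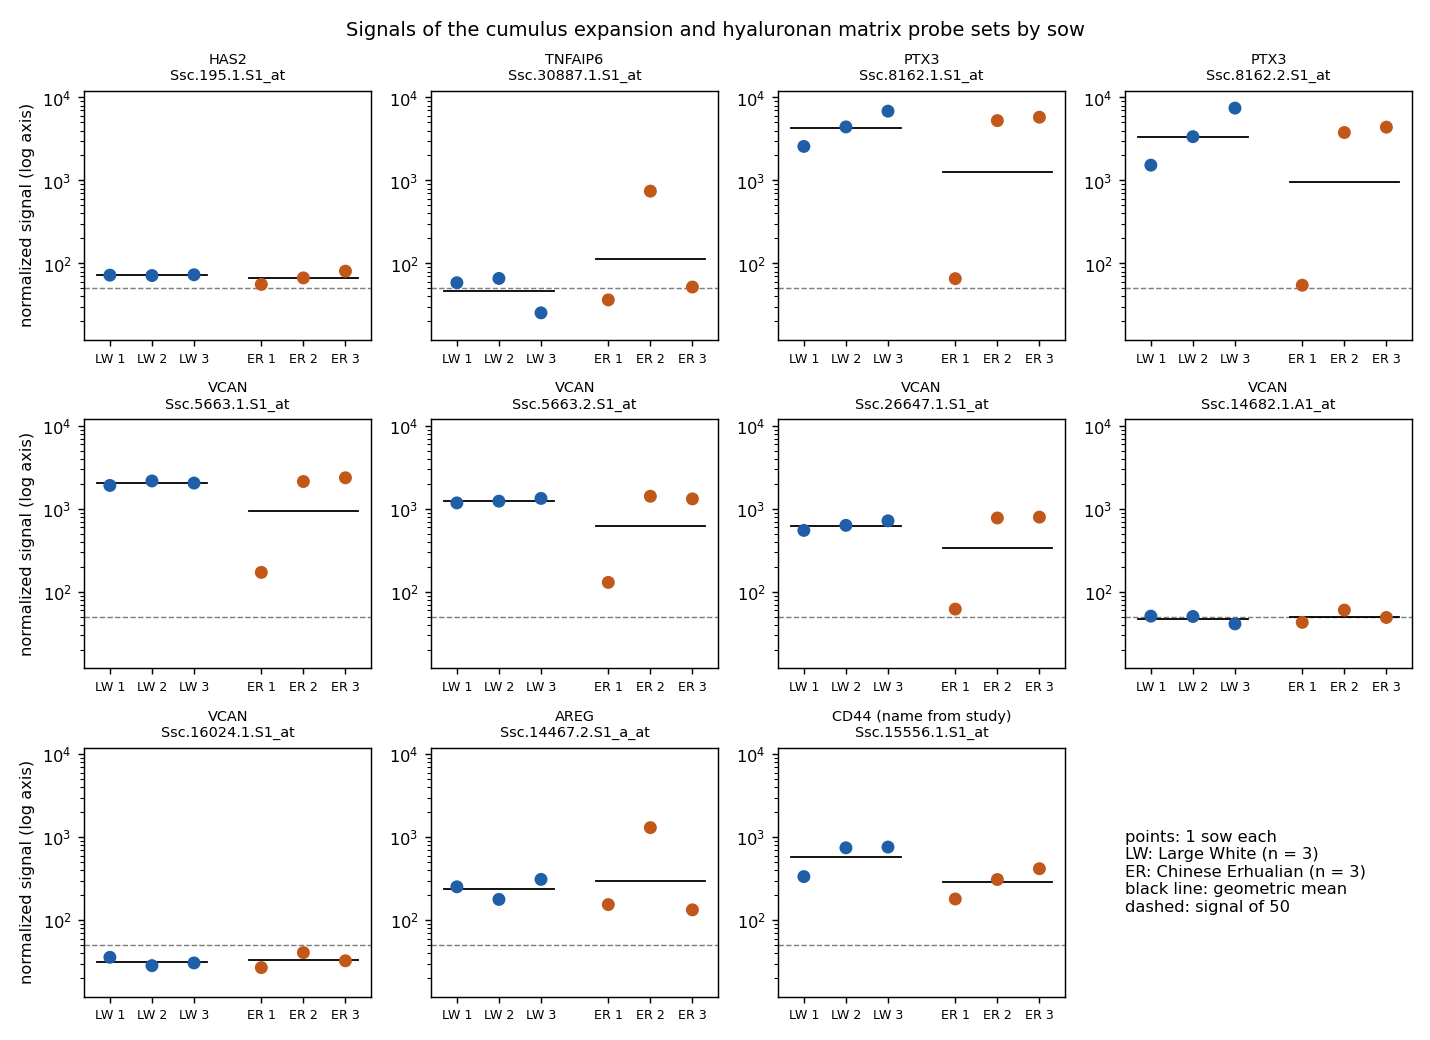
Normalized signal (linear values on a log axis, the same in every panel) of each probe set in each sow, with Large White (LW) in blue and Chinese Erhualian (ER) in orange, the geometric mean of the 3 sows as a black line and the filter level of 50 dashed. PTX3 and the 3 brighter VCAN probe sets drop in ER 1, to 65.6 and 172 for the brightest of each gene, while TNFAIP6 and AREG stand out in ER 2, at 744 and 1312.

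The question of the design was whether the breeds differ. Of the 9 probe sets tested, 3 were higher and 6 lower in Chinese Erhualian, and 0 had a limma adjusted p below 0.05, against 0.0208% of all 19196 tested probe sets. At an unadjusted p of at most 0.05, the threshold of the study's methods, the count was also 0 of 9, against 3.86% of all tested. The methods' t-test likewise gave 0 of 9. The breeds overlapped in all 9, whereas 9.10% of all tested probe sets had no overlap. The smallest p that exact permutation of 3 against 3 sows allows is 0.1, and it gave 0.6 or more for each of the 9. The median log2 difference of the 9 was -0.90, beside 0.00 over all tested probe sets, and 5 of the 6 probe sets with a negative difference were those low in Chinese Erhualian sow 1. Without that sow 9 of the 9 were higher and 0 lower in Chinese Erhualian, with a median of 0.27, beside 9477 higher and 9719 lower and a median of 0.00 over all tested probe sets. These 9 come from 5 genes and share the same 5 sows, and none of them had a limma adjusted p below 0.05 then either. The intervals are wide: those of PTX3, VCAN, AREG and TNFAIP6, with the exception of the dim VCAN probe set Ssc.14682.1.A1_at, include a doubling and a halving of the signal (a log2 difference of 1 or -1), so a breed difference of that size was not detectable with these arrays.

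Leaving out 1 sow changed which probe sets overlapped. Without Chinese Erhualian sow 2, AREG was lower in both remaining Chinese Erhualian sows than in every Large White sow, as 25.7% of tested probe sets then had no overlap, and its unadjusted p was at most 0.05, as was that of 6.38%. Without Chinese Erhualian sow 1, VCAN Ssc.26647.1.S1_at was higher in both remaining Chinese Erhualian sows, where 16.8% of tested probe sets had no overlap. Without Chinese Erhualian sow 3, HAS2 was lower in both remaining sows, where 18.3% had none. Each of these is 1 probe set of 9, and none had a limma adjusted p below 0.05.

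**Figure D2:**
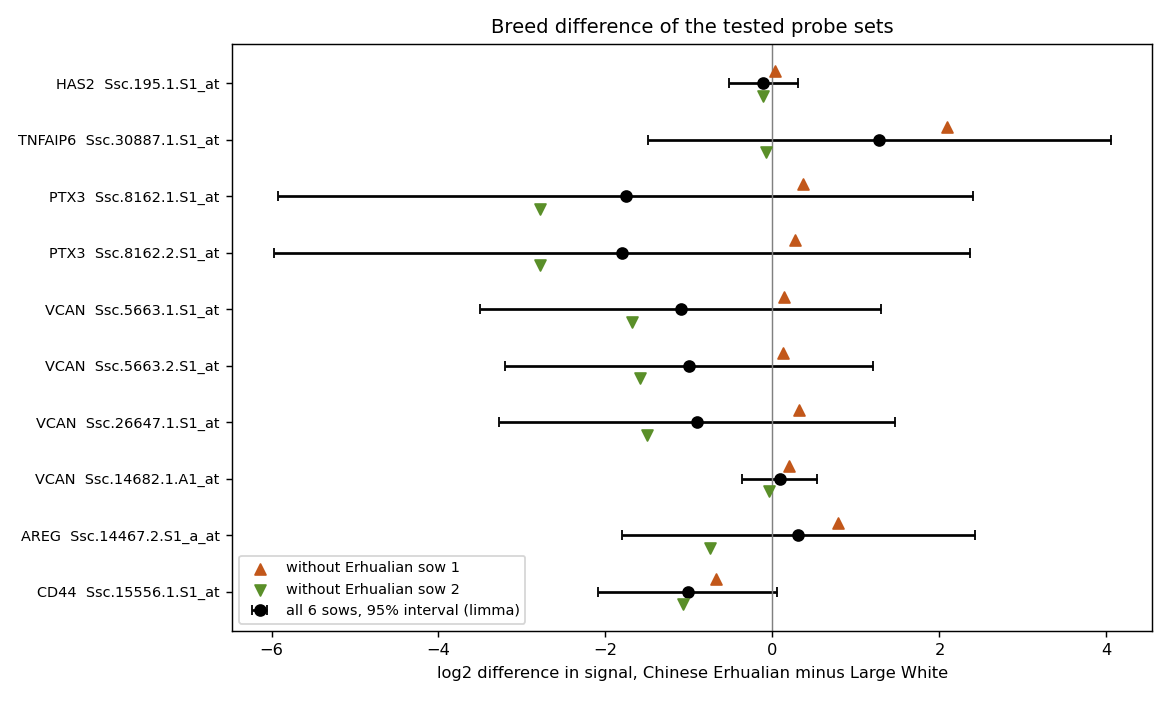
Log2 difference in signal, Chinese Erhualian minus Large White, for the 9 tested probe sets and for CD44, with black points and bars for the limma estimate and its 95% interval over 6 sows, and triangles for the estimate without Chinese Erhualian sow 1 (upward) or sow 2 (downward). All intervals cross 0, and the triangles of PTX3 and of the brighter VCAN probe sets lie on opposite sides of 0, at 0.37 and -2.79 for PTX3 Ssc.8162.1.S1_at.

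How unusual the single sows were can be read against the whole array. A signal at least 4-fold below each of the other 5 sows was seen in Chinese Erhualian sow 1 for 5 of the 9 tested probe sets (2 of PTX3, 3 of VCAN), and for 0.599% of all tested probe sets. Those 5 come from 2 genes and are not independent. A signal at least 4-fold above each of the other 5 sows was seen in Chinese Erhualian sow 2 for 2 of the 9, TNFAIP6 and AREG, and for 0.0729% of all tested probe sets, 14 in number. Among the other probe sets of those 14 with a symbol were CYP17A1, the androgen-forming enzyme of theca cells, CYP19A3, an aromatase, and EDNRB, an endothelin receptor. These names and the limit of 4-fold were chosen after the values were seen, so the shares are descriptions. None of the 9 departed by this much, either way, in any of the remaining 4 sows.

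Some markers of cell types also stood apart in the sows of these 2 patterns, and others did not. Chinese Erhualian sow 1, low for PTX3 and VCAN, was the sow with the low granulosa, cumulus and steroid-producing sums and the high epithelial sum given above. Relative to the median of the 6 sows its list medians were -1.39 for granulosa and cumulus, -4.07 for steroid-producing, -1.55 for theca and 4.45 for epithelial markers on the log2 scale. The brightest PTX3 and VCAN probe sets stood at -6.20 and -3.61 on the same scale. The lowered granulosa markers included INHA at 446 against 6510 to 10684 elsewhere, and SERPINE2 at 585 against 6808 to 9860. Not all markers of this list were low there. INHBA, an inhibin beta subunit, was highest in that sow, 899 against 233 to 387, and CYP19A1, an aromatase, was at 119 against 88.4 to 117. FOXL2, a granulosa transcription factor, was within the range of the other sows there, 98.6 against 94.9 to 116. Of the 3 measured theca markers, ANPEP was highest in that sow, 671 against 218 to 382. EGFR, the receptor of AREG, named after its values were seen, was at 1980 there and at 1197 to 1879 in the others. The part of these markers in the PTX3 and VCAN result was not tested.

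Chinese Erhualian sow 2, high for TNFAIP6 and AREG, had the highest sums of steroid-producing markers, 60652, and of theca markers, 5151 against at most 2221 elsewhere. Of the 3 measured theca markers, CYP17A1 and INSL3 were highest there, at 1886 and 3047, but ANPEP was lowest, at 218. The steroid sum of Large White sow 1 was almost as high, 59515, but its TNFAIP6 and AREG signals were 58.6 and 254. The LH receptor gene LHCGR was at 557 in Chinese Erhualian sow 2 and between 18.5 and 181 in the others. The granulosa and cumulus sum of Chinese Erhualian sow 2, 27762, was the highest of the 6, and its epithelial sum, 1762, was within the range of the others. The part of these markers in the TNFAIP6 and AREG result was not tested either.

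**Figure D3:**
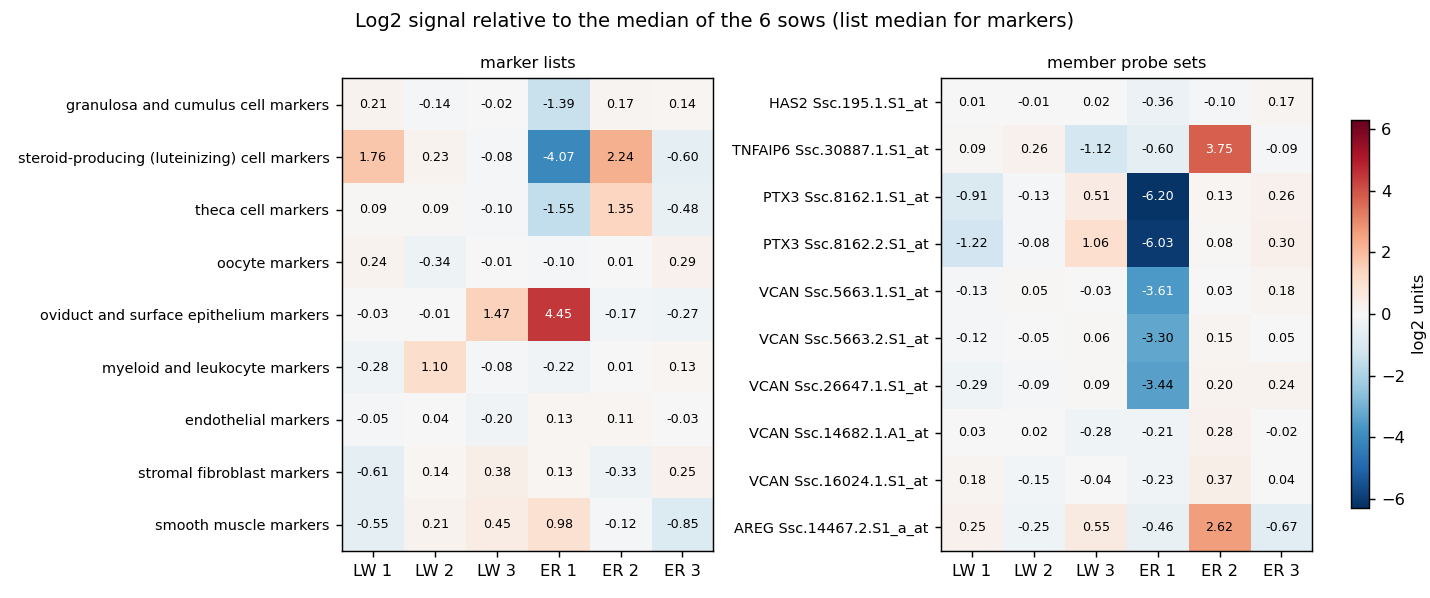
Log2 signal in each sow relative to the median of the 6 sows, for lists of cell type markers (left, median over the genes of a list) and for the 10 probe sets of the matrix genes (right), with red above and blue below the median and the value printed in each cell. In ER 1 the steroid-producing list is at -4.07 and PTX3 at -6.20 while the epithelial list is at 4.45. In ER 2 the steroid-producing list is at 2.24, TNFAIP6 at 3.75 and AREG at 2.62. In LW 1 the steroid-producing list is at 1.76, but TNFAIP6 is at 0.09 and AREG at 0.25.

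The genes whose pattern over the 6 sows was most like each member were ranked by the root mean square difference of log2 signals, each centred on its own mean, over about 9090 probe sets with 1 symbol. VCAN was followed most closely by SERPINE2, a serine protease inhibitor (0.15 log2 units), then by GSTA4, a glutathione transferase (0.27), and CLDN11, a tight junction protein (0.28). SERPINE2 was at 6808, 7943 and 7287 in the Large White sows and at 585, 9860 and 8141 in the Chinese Erhualian sows. The match was thus that of a signal level in 5 sows and low in Chinese Erhualian sow 1. SERPINE2 is also one of the granulosa markers summed above, so this likeness and that sum are not separate observations.

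For PTX3 the most similar genes were GPX3, the extracellular glutathione peroxidase, INHA, the alpha subunit of inhibin, and MRO, all at 0.75. INHA gave 6510, 9989 and 10684 in Large White sows 1, 2 and 3 and 446, 9602 and 8246 in Chinese Erhualian sows 1, 2 and 3, and MRO gave 528, 2185 and 4975 and then 73.3, 3583 and 2778. MRO and INHA, like PTX3, were lowest among the Large White sows in sow 1 and highest in sow 3, whereas GPX3, at 11731, 9435 and 7329, was highest in sow 1. INHA, like SERPINE2, is one of the granulosa markers summed above. VCAN came nineteenth for PTX3, at 1.03.

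AREG was most like OCRL, an inositol phosphatase (0.37), ASS1, argininosuccinate synthase (0.39), and BCKDHB, a subunit of branched-chain keto acid dehydrogenase (0.40). OCRL was at 652, 369.8 and 367 in the Large White sows and at 232, 1934 and 214 in the Chinese Erhualian sows. TNFAIP6 was most like RFLNA, a filamin-binding protein (0.61), DUOX2, a dual oxidase (0.62), and GNG2, a G protein subunit (0.62), and AREG came fifteenth for it, at 0.89. RFLNA was at 309, 178 and 147 in the Large White sows and at 106, 5097 and 446 in the Chinese Erhualian sows. Each of these genes was highest in Chinese Erhualian sow 2. HAS2 spanned 0.53 log2 units over the 6 sows, under the span of 1 needed for this comparison.

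**Figure D4:**
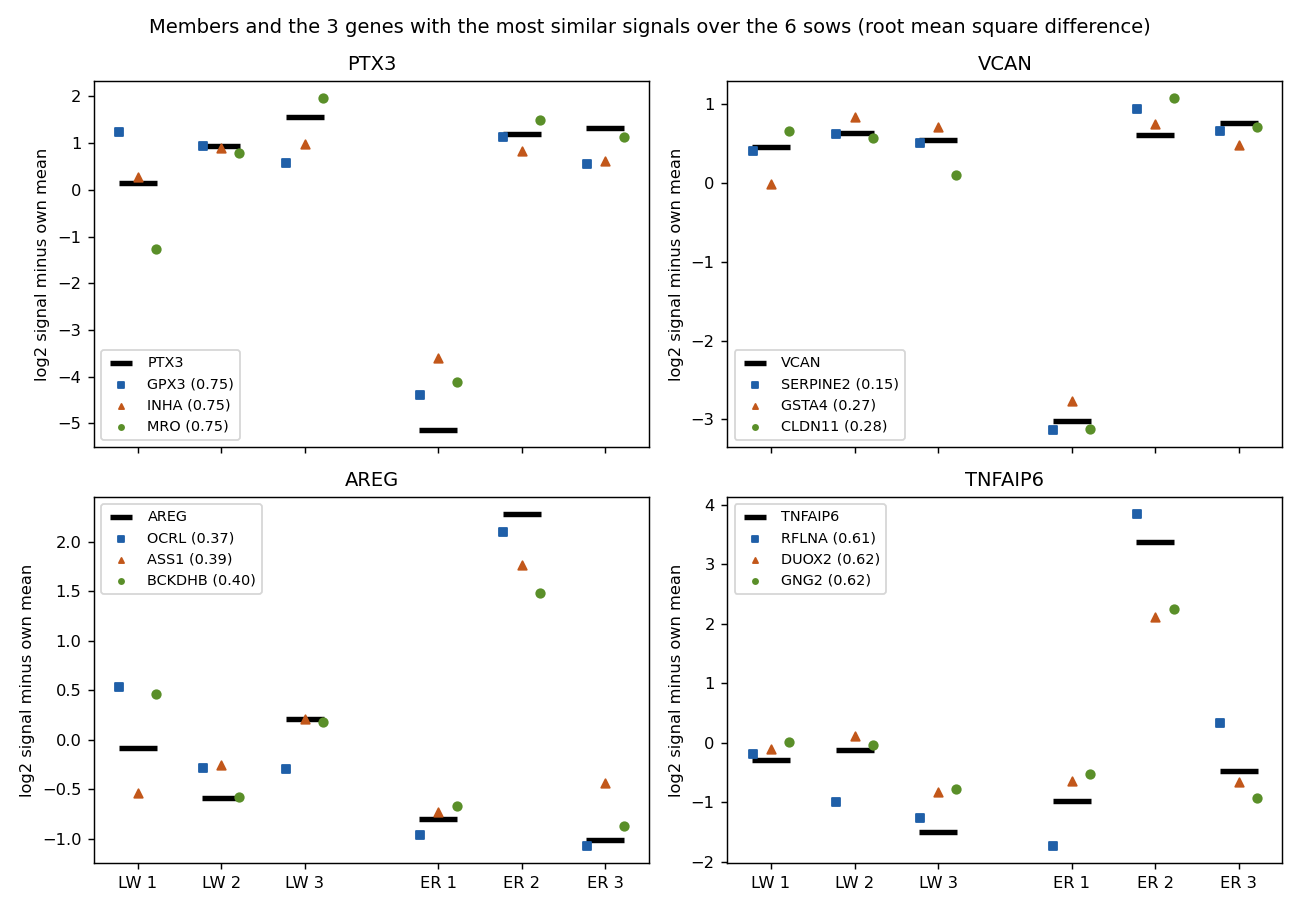
Log2 signal of a member (black bars) and of its 3 most similar genes (coloured symbols), each minus its own mean over the 6 sows, with the root mean square difference in brackets. The genes beside PTX3 and VCAN share the low value in ER 1, and those beside AREG and TNFAIP6 share the high value in ER 2; SERPINE2 lies 0.15 from VCAN.

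Whether the members varied together from sow to sow was asked for the 10 pairs of the 5 genes, with the brightest probe set of each. PTX3 and VCAN had a Pearson r of 0.99 (exact permutation p = 0.0236, adjusted over the 10 pairs 0.139) and a Spearman rho of 0.60 (exact permutation p = 0.242, adjusted 0.714). Without the 2 sows farthest from the median PTX3 signal, Large White sow 1 and Chinese Erhualian sow 1, r was -0.23, so the relation rested on those sows. HAS2 and VCAN gave r = 0.89 and rho = 0.54 (exact permutation p = 0.0278 and 0.297, adjusted 0.139 and 0.714), and r = -0.49 without Chinese Erhualian sows 1 and 3. HAS2 and PTX3 gave r = 0.88 and rho = 0.71 (exact permutation p = 0.0694 and 0.136, adjusted 0.231 and 0.714), and r = -0.14 without the same sows.

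TNFAIP6 and AREG gave r = 0.84 and rho = 0.31 (exact permutation p = 0.132 and 0.564, adjusted 0.330 and 0.714), and r = 0.44 without Large White sow 3 and Chinese Erhualian sow 2. None of the 10 pairs passed after adjustment. With 3 sows per breed no correlation was computed within a breed.

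The other genes of the process were put into 11 lists by role, 98 genes in all, of which 59 had a probe set and 50 were tested. At an unadjusted p of at most 0.05, 1 was higher in Chinese Erhualian (ITIH5) and 0 were lower, a share of the 50 below the 3.86% of all tested probe sets, and 0 had a limma adjusted p below 0.05. By direction alone 20 were higher and 30 lower, with a median log2 difference of -0.04 beside 0.00 over all tested probe sets. The split was 24 higher and 26 lower without Chinese Erhualian sow 1, with a median of -0.01. The lowest signal fell in Chinese Erhualian sow 1 for 20 of the 50 genes (40.0%), and for 24.2% of the 6322 genes with a tested probe set. Chinese Erhualian sow 2 held the highest for 12 (24.0%), against 15.2%.

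Upstream of the matrix, 4 of 11 genes of EGF-like ligands, sheddase and receptors were tested (median log2 difference 0.06). TGFA, another EGF receptor ligand, was at 549, 161 and 156 in the Large White sows and at 129, 1080 and 440.5 in the Chinese Erhualian sows, highest in the same sow as AREG, a log2 difference of 0.72 (SE 0.86) and of 1.53 without Chinese Erhualian sow 1. HBEGF, a further ligand, differed by -0.22 (SE 0.17), and by -0.12 without that sow. Among 8 of 15 tested genes of the LH receptor, cAMP and ERK relay (median -0.03), CREB1 and MAPK3, a transcription factor and a kinase of this relay, differed by 0.13 (SE 0.22) and 0.17 (SE 0.30). None of these passed the test.

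Prostaglandin E2 also drives expansion, and 3 of its 6 listed genes were tested (median -1.0). PTGES, a prostaglandin E synthase, was at 9391, 5807 and 6219 in the Large White sows and at 547, 7697 and 4458 in the Chinese Erhualian sows, low in the sow in which PTX3 and VCAN were low. Its log2 difference was -1.39 (SE 0.94), and -0.25 without that sow. PTGES3, a second synthase, differed by 0.36 (SE 0.27). PTGS2, the inducible cyclooxygenase and a classical target of the ovulatory signal, chosen after its values were seen, was at 22.7, 150.3 and 603 in the Large White sows and at 14.8, 15 and 1166 in the Chinese Erhualian sows. It was highest in Large White sow 3 and Chinese Erhualian sow 3, not in the sow highest for AREG and TNFAIP6. Its log2 difference was -1.0 (SE 1.99), and 0.05 without Chinese Erhualian sow 1, so its direction turned with that sow, as did that of the list median, which was then 0.05.

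Among hyaluronan and precursor synthesis genes, 6 of 9 were tested (median -0.07). HAS3, a second hyaluronan synthase, also chosen after its values were seen, was at 114, 193 and 979.8 in the Large White sows and at 56.8, 73.2 and 615 in the Chinese Erhualian sows, highest in the same sow of each breed as PTGS2. GNPNAT1, an enzyme of the UDP-N-acetylglucosamine supply, was at 582, 503 and 621 against 503, 1233 and 911, a log2 difference of 0.55 (SE 0.35), and of 0.90 without Chinese Erhualian sow 1. PGM3, of the same supply, differed by -0.34 (SE 0.24), and by -0.22 without that sow. The synthase HAS3 ranged widely among the sows of both breeds. HAS2 stayed between 55.9 and 80.8, close to the filter level of 50, where a drop could not be seen.

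All 5 tested genes of the 9 listed for hyaluronan breakdown had a negative difference (median -0.21), none passing the test, but without Chinese Erhualian sow 1 the split was 3 lower and 2 higher, with a median of -0.07. Those with the smallest p were HYAL3, a hyaluronidase (-0.21, SE 0.18), and GUSB, the lysosomal beta-glucuronidase (-0.70, SE 0.63). Both were -0.07 without that sow. As the mean over the 2 GUSB probe sets, its difference was -0.20. Of hyaluronan receptors and the partners of CD44, 9 of 12 were tested (median 0.12), and MSN and RDX, which tie CD44 to actin, differed by -0.26 (SE 0.24) and 0.42 (SE 0.59). These were -0.13 and 0.94 without Chinese Erhualian sow 1, and the median of the list turned to -0.13.

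The list for the inter-alpha-trypsin inhibitor family, whose heavy chains TNFAIP6 transfers, had 6 of 7 genes tested. Its median was 0.03, and 0.40 without Chinese Erhualian sow 1. That count and these medians include SPINT2, which is not a member of the family. ITIH5, a heavy chain family member, was at 854, 1290 and 1048 in Large White sows 1, 2 and 3 and at 1360, 1781 and 3614 in Chinese Erhualian sows 1, 2 and 3. Every Chinese Erhualian sow lay above every Large White sow, a lack of overlap shared by 9.10% of all tested probe sets. The means were 1064 ± 219 and 2251 ± 1199 (SD, n = 3 each), and the log2 difference was 0.97 with an SE of 0.39 (limma unadjusted p = 0.0445, limma adjusted p = 0.993), which did not pass after adjustment. Leaving out any single sow kept the difference between 0.57 and 1.27, but the unadjusted p was above 0.05 in each case except without Chinese Erhualian sow 1. In that case GNPNAT1 and ITIH4, another heavy chain gene, also came under it, 3 genes of 50, where 3.66% of all tested probe sets did, and without Chinese Erhualian sow 2 the only one was LHCGR, lower, where 6.38% did. SPINT2, a Kunitz-type protease inhibitor, was at 4380 in Chinese Erhualian sow 1 and between 174 and 642 in the others, and its log2 difference of 0.39 (SE 1.25) was -1.09 without that sow.

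The remaining lists held few tested genes and none past the test. Of hyaluronan-binding proteoglycans and link proteins 1 of 7 was tested, ACAN, the aggrecan gene (0.05, SE 0.17). Of versican-cleaving proteases and their partners 3 of 9 were tested (median -0.08), with FBLN1, a versican-binding cofactor, at -0.39 (SE 0.34) and TIMP3, an inhibitor, at -0.08 (SE 0.30), or 0.12 without Chinese Erhualian sow 1. Of pentraxins and the partners of PTX3 3 of 9 were tested (median -0.15), with FGF2 at -0.15 (SE 0.18) and C1QA, a complement subunit, at -0.21 (SE 0.55). Of oocyte-secreted factors, which enable cumulus cells to expand, 2 of 4 were tested, BMP15 at 0.12 (SE 0.18) and GDF9 at -0.09 (SE 0.21).

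**Figure D5:**
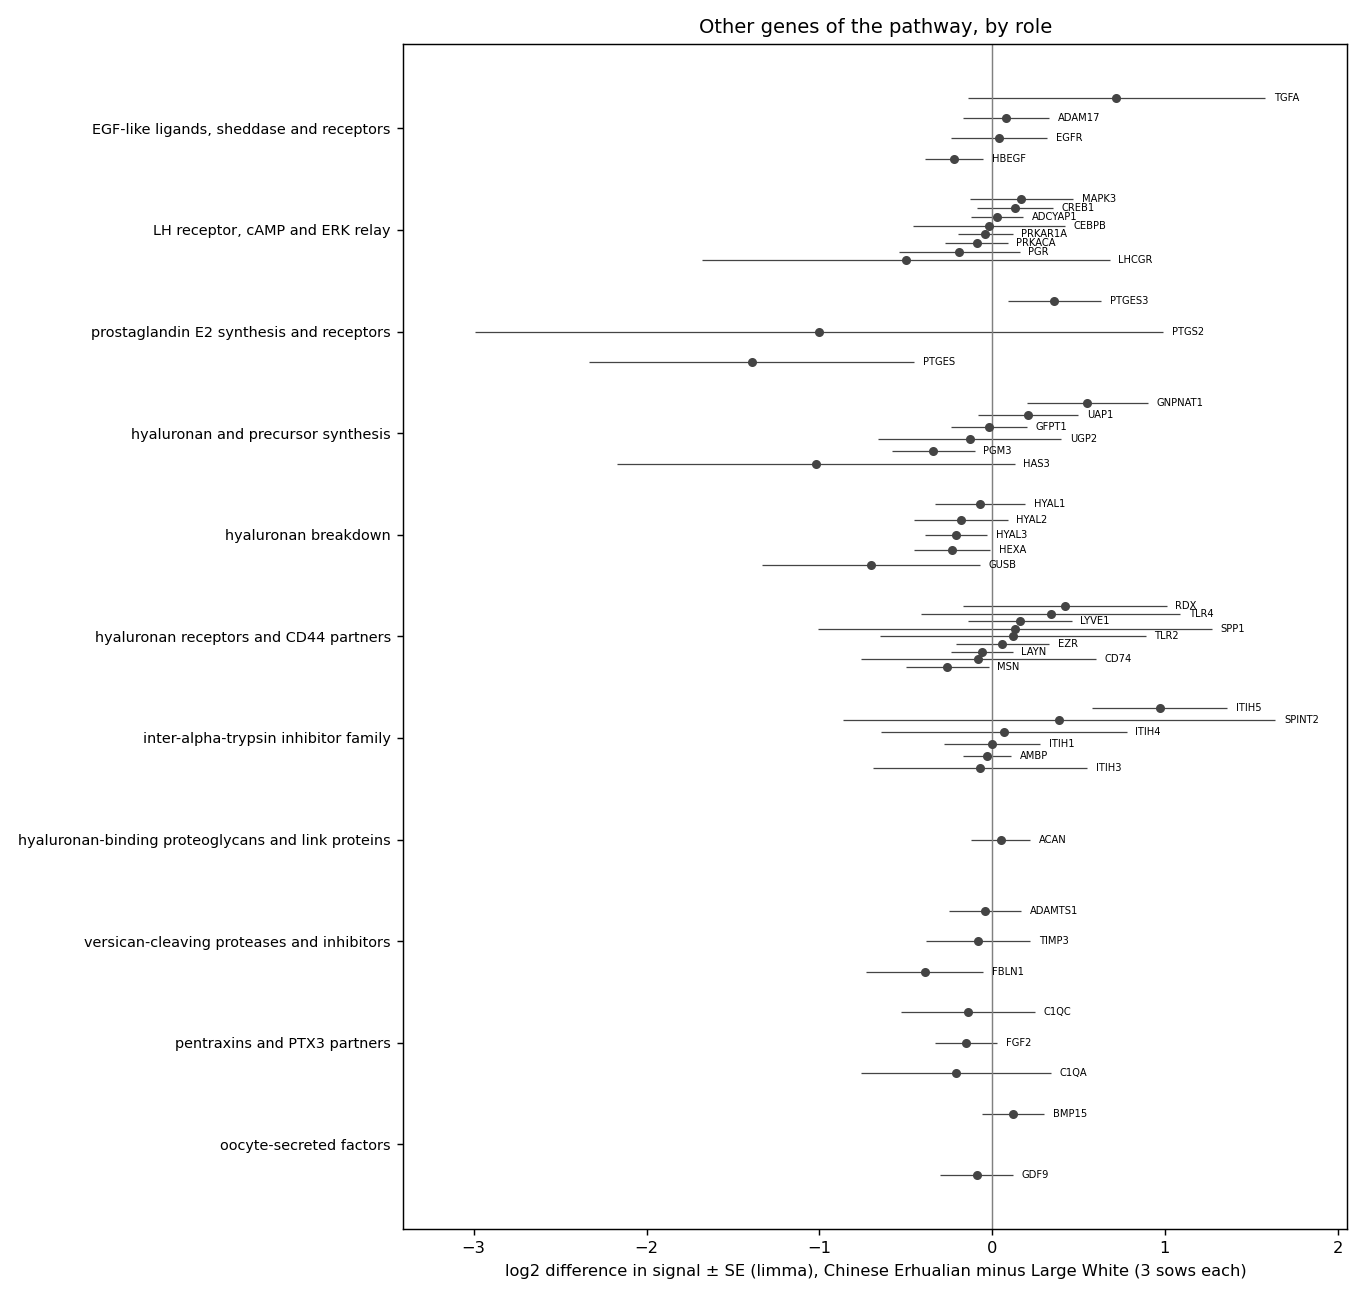
Log2 difference in signal, Chinese Erhualian minus Large White (3 sows each), of the 50 tested genes of the process grouped by role, with points for the limma estimate and bars for 1 SE on each side. Most bars cross 0, and ITIH5 lies at 0.97. PTGS2, which has the longest bar, lies at -1.0 with all 6 sows and at 0.05 without Chinese Erhualian sow 1. Its signal in Chinese Erhualian sow 2 was as low as in sow 1.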

How the data were processed

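Follicle RNA of 3 Large White and 3 Chinese Erhualian sows was measured, grouped by the labels. The authors made the deposited signal intensities (linear scale) with MAS5 (version 2.3.1 in the submitters' processing notes), global scaling and the invariant set normalization of dChip. Scaling removes differences in total RNA. Present calls and the authors' comparisons were not used here.

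Of 24123 probe sets, 188 controls were dropped. With a floor of 1, log2 signals of probe sets above 50 on at least 3 of 6 arrays were tested with limma 3.58.1 (R 4.3.3, variance trend, breed as the term, 2-sided), and p-values were adjusted by Benjamini-Hochberg over 19196 probe sets. Exact permutation tests were 2-sided. Tables and plots were made in Python 3.11.15 (numpy 2.4.6, scipy 1.17.1, pandas 2.3.3, matplotlib 3.10.9). The fit was also run on simulated data with normal noise and shifts of a whole breed. Single sows that stand apart, as here, were not simulated. Nothing says whether the sows of a breed were related, and p-values measure the spread between sows.

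The annotation of the array gives 1 symbol for 10099 probe sets, several for 198 and none for 13826. The brightest 1-symbol probe set stood for a gene in the lists. The members and lists were chosen with earlier results of these data known. Named were all member probe sets, the 2 genes of each pathway list with the smallest p, those at an unadjusted p of at most 0.05, the 3 genes most like each member and the tissue markers; any other is marked where it stands. Endothelial, stromal and smooth muscle markers were also summed (4694 to 5726, 9940 to 15499 and 11145 to 17538 over the 6 sows). Alternatives were 2 normalizations, 2 filters, an offset of 50, a constant prior variance, array weights, a replicate block, the methods' t-test, each array left out, and the mean over probe sets of a gene. No source used here holds the probe sequences.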

Additional observations from a re-analysis of the deposited data

How the results depend on the processing

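Under the 9 alternatives that kept all 6 arrays, no member probe set changed direction or passed the adjusted test. Array weights moved several of them by over 1.5 times: TNFAIP6 to 0.85, PTX3 to -1.03 and -1.09, the brighter VCAN probe sets to -0.66, -0.60 and -0.46, HAS2 to -0.01 and AREG to 0.18. With 50 added before log2, HAS2 was -0.06 and the dim VCAN probe set 0.05. At a filter of 100, HAS2, TNFAIP6 and VCAN Ssc.14682.1.A1_at were not tested. Over all alternatives the limma adjusted p of the members ran from 0.708 to 1.0. With each sow left out in turn HAS2 ran from -0.24 to 0.03, TNFAIP6 from -0.08 to 2.09, PTX3 from -2.86 to 0.37 and from -2.89 to 0.27, VCAN from -1.75 to 0.14 (Ssc.5663.1.S1_at), -1.59 to 0.13 (Ssc.5663.2.S1_at), -1.52 to 0.32 (Ssc.26647.1.S1_at) and -0.04 to 0.20 (Ssc.14682.1.A1_at), and AREG from -0.75 to 0.90. The count of members at an unadjusted p of at most 0.05 ran from 0 to 1, that without overlap from 0 to 1, and pathway genes under that p from 0 to 3 higher and from 0 to 1 lower.

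Direction also turned with 1 sow left out for TGFA (-0.01 to 1.53), CREB1 (-0.05 to 0.27), MAPK3 (-0.02 to 0.42), RDX (-0.17 to 0.94), SPINT2 (-1.09 to 1.24), ACAN (-0.05 to 0.13), FBLN1 (-0.65 to 0.01), TIMP3 (-0.42 to 0.12), C1QA (-0.73 to 0.34), BMP15 (0.00 to 0.26) and GDF9 (-0.23 to 0.04). With the mean over probe sets TIMP3 was 0.07, PTGES3 0.70, GUSB -0.20 and SPINT2 0.13. With median scaling r was 0.07 for HAS2 and TNFAIP6 (-0.06 otherwise) and 0.01 for HAS2 and AREG (-0.09 otherwise); the cause was not tested.

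The deviations of sows with the same number gave r = -0.172, -0.137 and 0.273. Sows with different numbers gave r from -0.481 to 0.512, so this check cannot show whether the numbers pair them. With the number as a replicate block the log2 differences were the same (AREG 0.31, TNFAIP6 1.28, PTX3 -1.76) and 0 members passed. Over all probe sets the adjusted calls were 4, 0 with the block, 11 with array weights and 0 by the methods' t-test.

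Signals near 50, as for HAS2, for TNFAIP6 in most sows and for PTX3 and VCAN Ssc.26647.1.S1_at in Chinese Erhualian sow 1, limit what a fold can show there.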
